A study of Homo sapiens with 35 samples.

Results

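The collagen, laminin and integrin genes of H9 human embryonic stem cells were followed as the cells were driven toward mesendoderm, the shared precursor of mesoderm and endoderm. The genes were taken by their symbols, in a choice made with earlier results of these data known. They are the COL genes with a numbered alpha chain, the LAMA, LAMB and LAMC genes, and the ITGA and ITGB genes, including ITGAD, ITGAE, ITGAL, ITGAM, ITGAV, ITGAX and ITGA2B. The rule found 82 genes of the 58581 in the deposited count table: 44 collagen, 12 laminin and 26 integrin genes. Of these, 74 reached 1 CPM (read counts scaled to library size with TMM factors) in at least 3 libraries: 42 collagen, 11 laminin and 21 integrin genes. The other 8 were COL10A1, COL28A1, LAMB4, ITGA8, ITGAD, ITGAL, ITGB6 and ITGB7.

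Poly(A) RNA was sequenced in 35 libraries. All cells were of the H9 line, were kept in E8 medium on a Matrigel coating before the experiment, and were seeded as single cells. BA cultures received E6 medium supplemented with BMP4 (40 ng/mL) and Activin A (40 ng/mL), and were sampled at 6, 12, 18, 24, 30, 36, 42 and 48 h. E6 cultures received the same medium without these factors and served as the control for spontaneous differentiation. E8 cultures stayed in the maintenance medium as the pluripotency control. Both controls were sampled at the same hours, and t0 is the untreated starting population. There were 3 replicates at BA 24 h, BA 48 h, E6 48 h, E8 48 h and t0, and 1 library at each of the other 20 combinations of medium and hour. The labels do not say whether replicates are separate cultures, so p-values measure the spread between these libraries, which may be technical.

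Collagens are extracellular proteins whose alpha chains wind into triple helices. Type IV collagen builds the network of basement membranes, types I, II, III, V and XI form fibrils, and type VI forms beaded filaments near cell surfaces. Laminins are trimers of an alpha, a beta and a gamma chain that form the second basement membrane network, and Matrigel is itself rich in laminin. Integrins are receptors of an alpha and a beta chain: ITGA6 with ITGB1 binds laminin and is a known anchor of human pluripotent cells, while ITGA5 with ITGB1, and ITGAV with its beta partners, bind fibronectin or vitronectin.

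Library totals were 11793453 to 37191969 counts. The libraries separated first by replicate set, not by medium: the first principal axis (60.8% of the variance over the genes that vary most) divides replicate 1 and the unnumbered libraries (25 libraries, here the replicate 1 set) from replicates 2 and 3 (10 libraries), and the second, with 24.2%, follows time in BA. Among the 74 genes, 10 had no overlap between the sets (6 higher in the replicate 1 set), against 6581 of 18346 genes of the whole table. Markers of mesendoderm summed to 105 to 1825 CPM in BA 48 h, with the highest value in replicate 1, to 1.52 to 5.95 CPM in E6 48 h and to 1.04 to 1.21 CPM at t0. Markers of definitive endoderm likewise summed to 44.2 to 2915 CPM in BA 48 h, again highest in replicate 1, against 7.67 to 14.3 CPM in E6 48 h. Of 7 fibroblast markers, DCN, LUM and FAP stayed below 1 CPM in every group, while the list summed to 79.6 to 323 CPM over the BA hours against 29.3 to 66.7 CPM over the E6 hours. The stem cell markers POU5F1, SOX2, NANOG, LIN28A and DPPA4 summed to 1405 to 3021 CPM over the BA hours against 2903 to 3554 CPM over the E6 hours, none of them below 1 CPM in either. Over the 3 replicates they summed to 1437 to 4709 CPM in BA 48 h and 3223 to 4074 CPM in E6 48 h. SOX2 was at 3.59, 156 and 127 CPM in BA 48 h against 408, 308 and 301 CPM in E6 48 h, and LIN28A and DPPA4 were also lower in BA in each replicate. POU5F1 (297, 2573 and 1591 CPM against 551, 984 and 1058 CPM) and NANOG (8.16, 54.4 and 49.1 CPM against 21.8, 16.9 and 11.1 CPM) were lower in BA in replicate 1 only and higher in replicates 2 and 3. The part of these marker changes in the results below was not tested. In the replicate 1 set, 5 libraries stood apart from their neighbouring hours: E6 18 h, E8 18 h, E8 24 h, E8 36 h and BA 42 h. The SD of their log2 deviations from the neighbours was 0.324 to 0.696. BA 48 h, set against BA 42 h alone, was at 0.436, and E6 24 h, next to E6 18 h, at 0.369, and both were kept. Without the 5 libraries the counts below are given as well. In E8 18 h, E8 36 h and BA 42 h, CDH1, the epithelial cadherin, was at 18.5, 25.0 and 22.5 CPM, while the other libraries of the replicate 1 set held 42.2 CPM or more. These are bulk samples, so fewer cells of a type and less RNA per cell cannot be told apart. The counting is not stated to use strand, and 27 of the 82 genes share exon sequence with a gene on the other strand, among them ITGA5, ITGA6, ITGA7, ITGA9, ITGAV, ITGB1, LAMB1, COL4A2, COL4A3, COL9A1, COL18A1 and COL19A1, so their reads cannot be assigned to a strand.

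Compared per kilobase of merged exon length, the integrin beta chain gene ITGB1, the partner of most alpha chains, had the highest level of all 82 genes, at a mean of 104 CPM per kb over the 35 libraries. ITGB5, the beta partner of ITGAV for vitronectin, followed at 65.2 CPM per kb. Among collagens, COL18A1, the basement membrane collagen that carries endostatin, led at 56.8 CPM per kb. COL6A1 followed at 51.8, COL26A1 at 35.0 and COL5A2 at 34.7 CPM per kb. These means pool the media: at t0 alone COL26A1, at 42.5 CPM per kb, stood above COL6A1, at 19.5, while COL18A1 was at 54.7 (means of 3 libraries). Over the 35 libraries the laminin chains stood in the order LAMC1 (52.2 CPM per kb), LAMB1 (26.3), LAMB2 (22.0), LAMA5 (18.2) and LAMA1 (11.7). Thus the chains of laminin-111 and laminin-511 (LAMA1 or LAMA5 with LAMB1 and LAMC1) were well represented, with LAMB2 at 21.2 above LAMB1 at 17.7 CPM per kb at t0, while over the 35 libraries the epithelial chains LAMA3 and LAMB3 were at 0.0983 and 0.186 CPM per kb. At t0 alone, ITGB1 was at 819.7, 387 and 379 CPM, LAMC1 at 593, 307 and 313 CPM and COL18A1 at 485, 439.7 and 473 CPM in replicates 1, 2 and 3. The COL18A1 replicates were close to each other, whereas ITGB1 and LAMC1 were about as high again in replicate 1 as in the other replicates.

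The 6 genes of type IV collagen lie as 3 pairs, each with its starts back to back on opposite strands, so that a single short stretch of DNA precedes both genes. The starts are 127 bases apart for COL4A1 and COL4A2 on chromosome 13, 419 for COL4A3 and COL4A4 on chromosome 2, and 380 for COL4A5 and COL4A6 on chromosome X. The stretches are printed because the partners of a pair followed similar courses in BA, each pair its own. Sequences are from RefSeq, build GRCh38.p14, 5′ to 3′ on the strand of the named gene. The RefSeq table holds promoter entries for 58 of the 82 genes, and of its 2 entries for COL4A6 the one that faces COL4A5 was used. The first is the whole of the bases between the starts of COL4A1 and COL4A2 (chr13:110307158-110307283, plus strand). The others are the 250 bases before the start of COL4A3 (chr2:227164374-227164623, plus), COL4A4 (chr2:227164206-227164455, minus), COL4A5 (chrX:108439588-108439837, plus) and COL4A6 (chrX:108439459-108439708, minus). Capitals mark the motifs GGGCGG and CCAAT on either strand, read there as CCGCCC and ATTGG; the motifs do not overlap.
COL4A1-COL4A2: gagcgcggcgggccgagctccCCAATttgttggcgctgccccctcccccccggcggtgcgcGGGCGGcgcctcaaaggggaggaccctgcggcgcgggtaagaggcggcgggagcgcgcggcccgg
COL4A3: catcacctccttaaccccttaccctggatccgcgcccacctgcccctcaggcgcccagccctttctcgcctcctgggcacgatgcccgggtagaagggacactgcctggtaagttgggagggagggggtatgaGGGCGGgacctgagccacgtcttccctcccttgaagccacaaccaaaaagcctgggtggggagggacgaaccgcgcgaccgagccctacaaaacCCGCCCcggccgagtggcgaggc
COL4A4: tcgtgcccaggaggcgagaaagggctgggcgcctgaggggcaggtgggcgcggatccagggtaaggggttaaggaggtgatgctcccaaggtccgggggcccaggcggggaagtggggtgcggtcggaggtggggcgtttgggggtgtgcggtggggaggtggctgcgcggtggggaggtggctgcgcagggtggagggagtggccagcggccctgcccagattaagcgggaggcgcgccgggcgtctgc
COL4A5: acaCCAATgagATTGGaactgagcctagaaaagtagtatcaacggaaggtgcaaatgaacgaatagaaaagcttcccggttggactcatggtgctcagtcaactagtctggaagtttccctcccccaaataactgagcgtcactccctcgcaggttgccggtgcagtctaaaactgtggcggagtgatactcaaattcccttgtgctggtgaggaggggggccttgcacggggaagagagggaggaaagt
COL4A6: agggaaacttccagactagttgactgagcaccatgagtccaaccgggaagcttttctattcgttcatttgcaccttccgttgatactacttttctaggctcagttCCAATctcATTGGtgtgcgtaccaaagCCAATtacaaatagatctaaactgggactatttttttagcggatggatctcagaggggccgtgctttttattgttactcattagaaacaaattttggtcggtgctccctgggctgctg

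The stretch between COL4A1 and COL4A2 was 80.2% G and C and held 1 match of each motif. Over the last 126 bases before the start, 34.6% of 35116 promoter entries held GGGCGG and 21.1% held CCAAT. The COL4A3 stretch (66.4% G and C) held GGGCGG at 2 places and the COL4A4 stretch (72.8%) held neither motif. The COL4A5 stretch (51.2%) and the COL4A6 stretch (44%) held CCAAT at 2 and 3 places and no GGGCGG, where 32.0% and 42.6% of entries hold CCAAT and GGGCGG in the same 250 bases. The COL4A3 and COL4A4 stretches overlap, as do those of COL4A5 and COL4A6, so a match in the shared bases is counted for both partners. A match is a description of the sequence only.

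COL4A3 and COL4A4, whose chains form the mature network of the kidney filter, appeared in a short pulse in BA. COL4A4 was at 0.751, 4.31, 7.07, 4.30, 1.89, 1.23, 0.742 and 0.979 CPM from 6 to 48 h in the replicate 1 set. COL4A3 was at 0.536, 2.31, 3.91, 1.21, 0.315, 0.0614, 0.124 and 0.522 CPM. Both were highest at 18 h and under 1 CPM again at 42 h, against 0.843 CPM of COL4A4 and 0.211 CPM of COL4A3 at t0, while over the same hours E6 held at most 1.44 CPM of COL4A4 and 0.679 CPM of COL4A3. The pulse was still visible in all replicates at 24 h, when COL4A4 was at 4.30, 2.32 and 2.61 CPM in BA 24 h against 0.843, 1.37 and 0.605 CPM at t0, and COL4A3 at 1.21, 1.24 and 1.41 CPM against 0.211, 0.326 and 0.320 CPM. Neither gene overlapped between the groups, and both rose, COL4A4 3.29-fold (log2 difference 1.72 ± 0.38 SE, edgeR adjusted p = 0.0446) and COL4A3 4.48-fold (2.16 ± 0.40, 0.0189). Leaving out 1 of the 6 libraries raised the adjusted p to as much as 0.270 for COL4A4, lost in 6 of 6 fits, and 0.102 for COL4A3, lost in 5. At 48 h they were at 0.988 ± 0.0255 and 0.419 ± 0.0953 CPM in BA, against 3.08 ± 1.07 and 1.29 ± 0.111 CPM at 24 h (SD, n = 3), and this fall passed the threshold only with the replicate number as a block (edgeR adjusted p = 0.0160 and 0.0140, against 0.0994 and 0.109 without it).

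COL4A1 and COL4A2, the chains of the basement membrane of nearly every tissue, were lowest late in BA and highest at its end. COL4A1 was at 315, 241, 191, 232, 218, 209, 120.1 and 532 CPM from 6 to 48 h. COL4A2 was at 278, 236, 187, 256, 208, 171, 125 and 343 CPM. Both were lowest at 42 h, in the library with low CDH1, and highest at 48 h. In replicates 2 and 3 COL4A1 was at 85.9 and 109 CPM in BA 24 h, below 155 and 165 CPM at t0, and at 217 and 230.0 CPM in BA 48 h. The 48 h level exceeded the 24 h level by a log2 difference of 1.23 ± 0.50 (SE) for COL4A1 and 0.68 ± 0.37 for COL4A2 (edgeR adjusted p = 0.395 and 0.619; 2.49e-04 and 0.00180 with the replicate block). The chain genes COL4A5 and COL4A6 had their highest BA values at 48 h without such a low. COL4A5 was at 323, 206 and 212 CPM in BA 48 h, 271, 127 and 137 CPM in BA 24 h and 163, 99.9 and 95.4 CPM at t0. COL4A6 was at 242, 195 and 202 CPM in BA 48 h, 172, 97.6 and 110.3 CPM in BA 24 h and 116, 106 and 105 CPM at t0. Between BA 48 h and t0 neither gene overlapped. COL4A6 rose 2.02-fold (log2 1.01 ± 0.19, edgeR adjusted p = 0.00876, lost in 2 of 6 fits without 1 library), and COL4A5 stood at 2.12-fold (1.08 ± 0.32, 0.0687; 1.92e-04 with the replicate block).

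**Figure D1:**
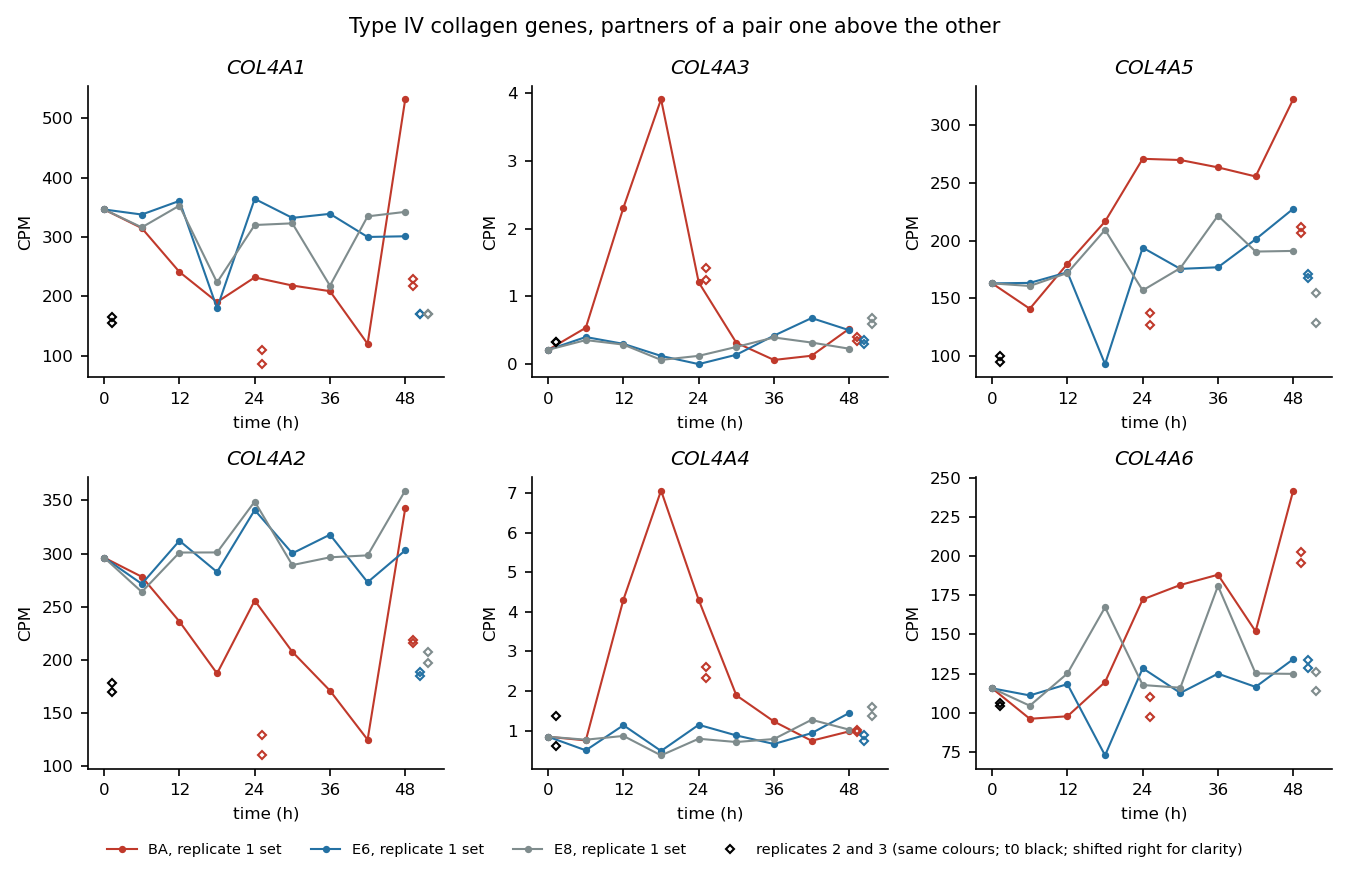
CPM (vertical axes, linear) of the 6 type IV collagen genes against time in hours, with partners of a pair one above the other. Lines join the libraries of the replicate 1 set in BA, E6 and E8 from the shared t0 library, and diamonds are replicates 2 and 3; COL4A3 and COL4A4 peak at 3.91 and 7.07 CPM at 18 h in BA, COL4A1 and COL4A2 are lowest at 42 h, and COL4A5 and COL4A6 end at 323 and 242 CPM.

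Across the 8 hours, each BA library was set against the E6 library of the same hour in an edgeR quasi-likelihood model of the 24 libraries of the replicate 1 set, with the hour as a factor. The p-values there rest on the spread between hours, with 1 library per medium and hour. Of 74 genes tested, 46 passed a Benjamini-Hochberg adjusted p below 0.05, 34 higher and 12 lower in BA, where 30.9% of all 18244 genes tested passed. By family these were 19 higher and 9 lower of 43 collagen genes, 4 higher and none lower of 10 laminin genes, and 11 higher and 3 lower of 21 integrin genes. The 74 tested here passed the count filter of this fit and are not the same as the 74 at 1 CPM. They include COL28A1, ITGA8 and ITGB7 and lack LAMB3, ITGAM and ITGAX. The median log2 difference of these 74 was 0.41, against -0.01 over all genes. The filter asked for counts in any 3 libraries, so genes that reached it only through BA could be called only as higher. Those among the 34 included COL6A5, COL6A6, COL19A1, ITGA8, ITGB3 and ITGB7, which also count in the median. In the E6 and E8 hours COL19A1 and ITGA8 had at most 2 counts a library. COL6A5 had at most 4, ITGB3 and ITGB7 at most 6 and COL6A6 at most 12. With replicates 2 and 3 of BA 24 h, BA 48 h, E6 48 h and E8 48 h added and the replicate number as a block, 45 passed (33 higher and 12 lower) at a background of 33.5%, and 40 of them passed in both fits. Without the 5 libraries that stood apart, 45 passed, and with the BA and E6 libraries alone 41, without COL4A4, COL5A1, COL5A3, LAMA3 and ITGB2. Leaving out 1 hour at a time, 37 of the 46 passed in every such fit in which they were tested, which was all 8 for 35 of them and 5 of 8 for ITGA8 and ITGB3; the 9 that did not were COL4A4, COL4A5, COL5A3, COL9A3, COL11A1, COL26A1, LAMA2, LAMA3 and ITGB2. Pairs in brackets below are the log2 difference ± SE and the edgeR adjusted p.

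**Figure D2:**
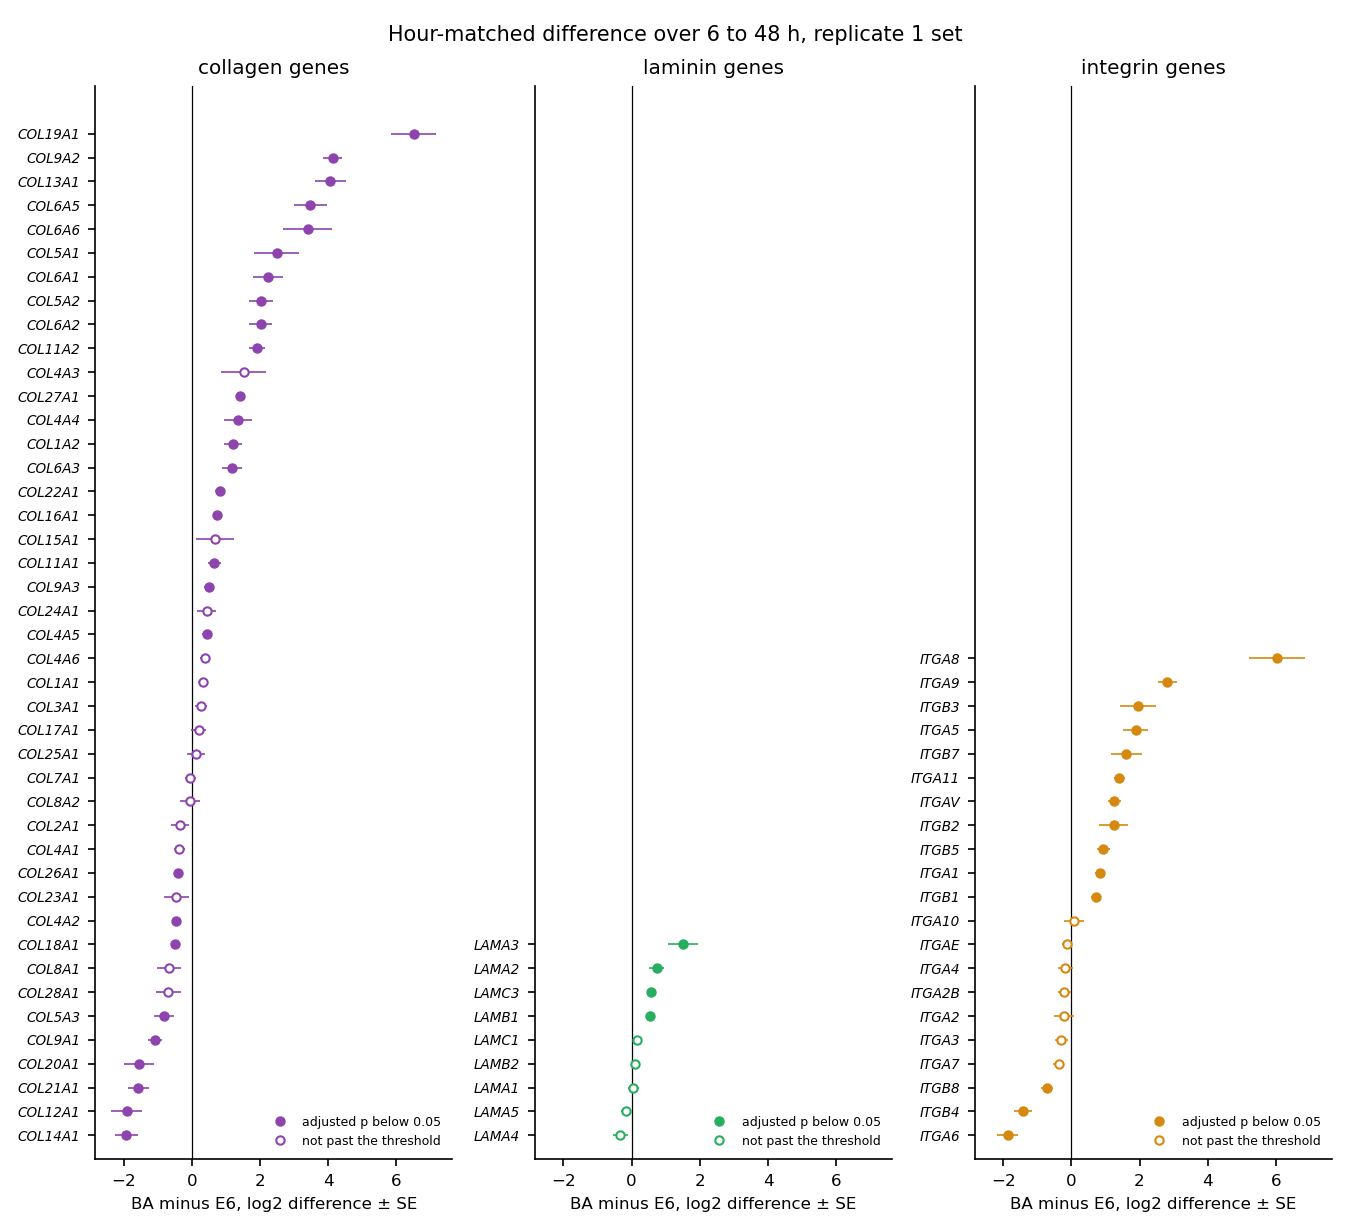
Log2 difference of BA from E6 averaged over 6 to 48 h in the replicate 1 set (horizontal axes, with bars of 1 SE) for 73 tested genes, in rows ordered by size within each family. Filled points passed an edgeR adjusted p of 0.05; they run from -1.92 for COL14A1 to 6.5 for COL19A1, and all 4 filled laminin points lie above 0.

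The 5 type VI genes tested were higher in BA than in E6 over the hours. COL6A1, an alpha chain of its core filament, was at 79.0, 114, 229, 473, 876, 1093, 1257 and 1200.5 CPM from 6 to 48 h in BA, against 79.1 to 168 CPM (median 103) over the E6 hours. It was 4.73-fold higher on average (log2 difference 2.24 ± 0.44 SE, edgeR adjusted p = 8.20e-04), above E6 at 7 of 8 hours and just below it at 6 h. Its partner COL6A2 was 4.07-fold higher (2.03 ± 0.34, 1.75e-04), with 33.7 to 314 CPM (median 209) in BA against 25.6 to 66.2 CPM (median 33.9) in E6. COL6A3, the long chain that completes the core trimer, was far lower and followed a different course: it was at 7.29, 8.68, 13.8, 15.2, 13.5, 9.34, 4.08 and 7.90 CPM in BA, highest at 24 h, against 1.81 to 7.44 CPM (median 4.28) in E6 (2.27-fold, log2 1.18 ± 0.30, 0.00598). Per kilobase the 3 core chains averaged 51.8, 22.0 and 0.430 CPM per kb over all libraries, in the order COL6A1, COL6A2 and COL6A3. The alternative chain genes COL6A5 and COL6A6 were nearly silent outside BA. COL6A6 was at 0.107 to 27 CPM (median 2.76) over the BA hours, against 0.179 to 0.599 CPM (median 0.282) in E6, and was higher (log2 3.39 ± 0.73, 0.00164). COL6A5 was at 0.161 to 2.47 CPM (median 1.08) against 0 to 0.200 CPM (median 0.0872), a log2 difference of 3.48 ± 0.49 (adjusted p = 3.01e-05).

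The type V chains COL5A1 and COL5A2 were higher in BA in the replicate 1 set. COL5A1, whose chain starts collagen fibrils, was at 36.6, 44.4, 44.3, 88.7, 164, 558, 1148 and 1639 CPM from 6 to 48 h in BA, against 37.5 to 55.0 CPM (median 38.7) in E6. Its partner COL5A2 was at 201, 308, 372, 479, 569, 833, 539.6 and 2446 CPM, against 89.6 to 189 CPM (median 158). COL5A1 stayed at its E6 level until 18 h and climbed from 24 h on, whereas COL5A2 was above E6 at every hour. Over the hours COL5A1 was 5.63-fold higher (log2 2.49 ± 0.66, edgeR adjusted p = 0.00718; 0.0735 with BA and E6 libraries alone) and COL5A2 4.08-fold (2.03 ± 0.36, 3.12e-04). The third chain gene, COL5A3, was lower in BA (log2 difference -0.81 ± 0.29, 0.0442), lost in 5 of 8 fits without 1 hour. The type I chains, which form the main fibril of skin and bone, did not move alike. COL1A2 was at 76.2 to 785 CPM (median 259) in BA against 80.2 to 187 CPM (median 106) in E6 and was 2.31-fold higher (1.21 ± 0.26, 0.00172). COL1A1 was at 27.4 to 154 CPM (median 88.8) against 46.7 to 104 CPM (median 59.7), with a log2 difference of 0.33 ± 0.15 that missed the threshold (0.101). COL1A1 was lower in late than in early BA hours, 60.6 CPM at 48 h against 154 at 6 h. It also fell in E6 and E8 of the replicate 1 set, in E6 from 104 CPM at 6 h to 46.7 CPM at 42 h. In replicates 2 and 3 COL1A1 was higher at BA 48 h (165 and 156 CPM) than at t0 (85.4 and 107 CPM). There it was higher still at E6 48 h, with 8089 and 8271 counts against 4932 and 5064 counts at BA 48 h. COL3A1, the type III chain, was at 4.22 to 16.9 CPM in BA, 3.75 to 10.3 CPM in E6 and 8.22 CPM at t0 in the replicate 1 set, but at no more than 0.216 CPM in any library of replicates 2 and 3.

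Of the other collagens, COL9A2, a chain of type IX collagen, which coats fibrils in cartilage, was at 41.0 CPM at 6 h in BA, against 4.04 CPM in E6 and 5.38 CPM at t0, and reached 323 CPM at 48 h. The hours gave 41.0 to 323 CPM (median 122) in BA against 4.04 to 10.5 CPM (median 6.93) in E6 without overlap, and the difference was 17.5-fold (log2 4.13 ± 0.29, edgeR adjusted p = 9.67e-09). Its partner chains went their own ways: COL9A1 was lower in BA, 2.11-fold (-1.08 ± 0.21, 5.91e-04), and COL9A3 higher, 1.41-fold (0.49 ± 0.14, 0.0123; 0.119 with replicates 2 and 3 added). COL13A1, a transmembrane collagen of adhesion sites, was at 5.84 to 147 CPM (median 55.3) in BA against 1.38 to 5.89 CPM (median 2.43) in E6 (16.7-fold, log2 4.07 ± 0.45, 2.55e-06), with only its 6 h value inside the E6 range. COL27A1, a fibrillar collagen of cartilage, was at 133 to 189 CPM (median 152) against 45.1 to 72.3 CPM (median 54.3) with no overlap, 2.67-fold (1.42 ± 0.09, 3.30e-09). The type XI chain COL11A2 was 3.75-fold higher (1.91 ± 0.24, 7.96e-06) and COL11A1 1.58-fold (0.66 ± 0.20, 0.0152). COL16A1 and COL22A1, both fibril-associated, were 1.68-fold and 1.76-fold higher (adjusted p = 1.82e-04 and 3.28e-04). COL19A1 was at 0.322 to 12.5 CPM (median 1.29) in BA and at no more than 0.170 CPM in E6, and at no more than 0.100 CPM in replicates 2 and 3. It shares exon sequence with LMBRD1 on the other strand.

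Collagens that were lower in BA included the large fibril-associated chains. COL12A1 was at 36.1, 13.6, 7.38, 4.25, 3.41, 2.4, 0.371 and 0.587 CPM from 6 to 48 h in BA, against 6.72 to 48.3 CPM (median 17.9) in E6, and was 3.74-fold lower (log2 -1.90 ± 0.45, edgeR adjusted p = 0.00357). At 48 h this rested on the replicate 1 set, since replicates 2 and 3 held 14.2 and 20.2 CPM in BA and 14.6 and 14.5 CPM in E6. COL14A1 was at 1.55 to 8.26 CPM (median 2.97) in BA and 11.1 to 18.7 CPM (median 15.7) in E6, 3.78-fold lower (-1.92 ± 0.35, 3.87e-04), with no overlap between the media, and replicates 2 and 3 showed the same order at 48 h. COL20A1 and COL21A1 were 2.91-fold and 2.96-fold lower (0.0112 and 5.79e-04). The basement membrane collagens COL18A1 and COL4A2 were lower by small amounts, 1.39-fold (0.00726) and 1.37-fold (0.00601), and COL26A1 by 1.32-fold (0.0129). Without the 5 libraries that stood apart, the adjusted p was 0.0833 for COL18A1, 0.139 for COL26A1 and 0.0586 for COL5A3. With replicates 2 and 3 added it was 0.0580 for COL18A1 and 0.451 for COL26A1. COL2A1, the main collagen of cartilage, was at 17.4, 6.98 and 5.58 CPM in BA 48 h against 67.8, 45.2 and 38.3 CPM in E6 48 h. It was lower in every replicate, by log2 ratios (CPM + 1) of -1.90, -2.53 and -2.58, and passed only with the replicate block (edgeR adjusted p = 0.00714, against 0.373).

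**Figure D3:**
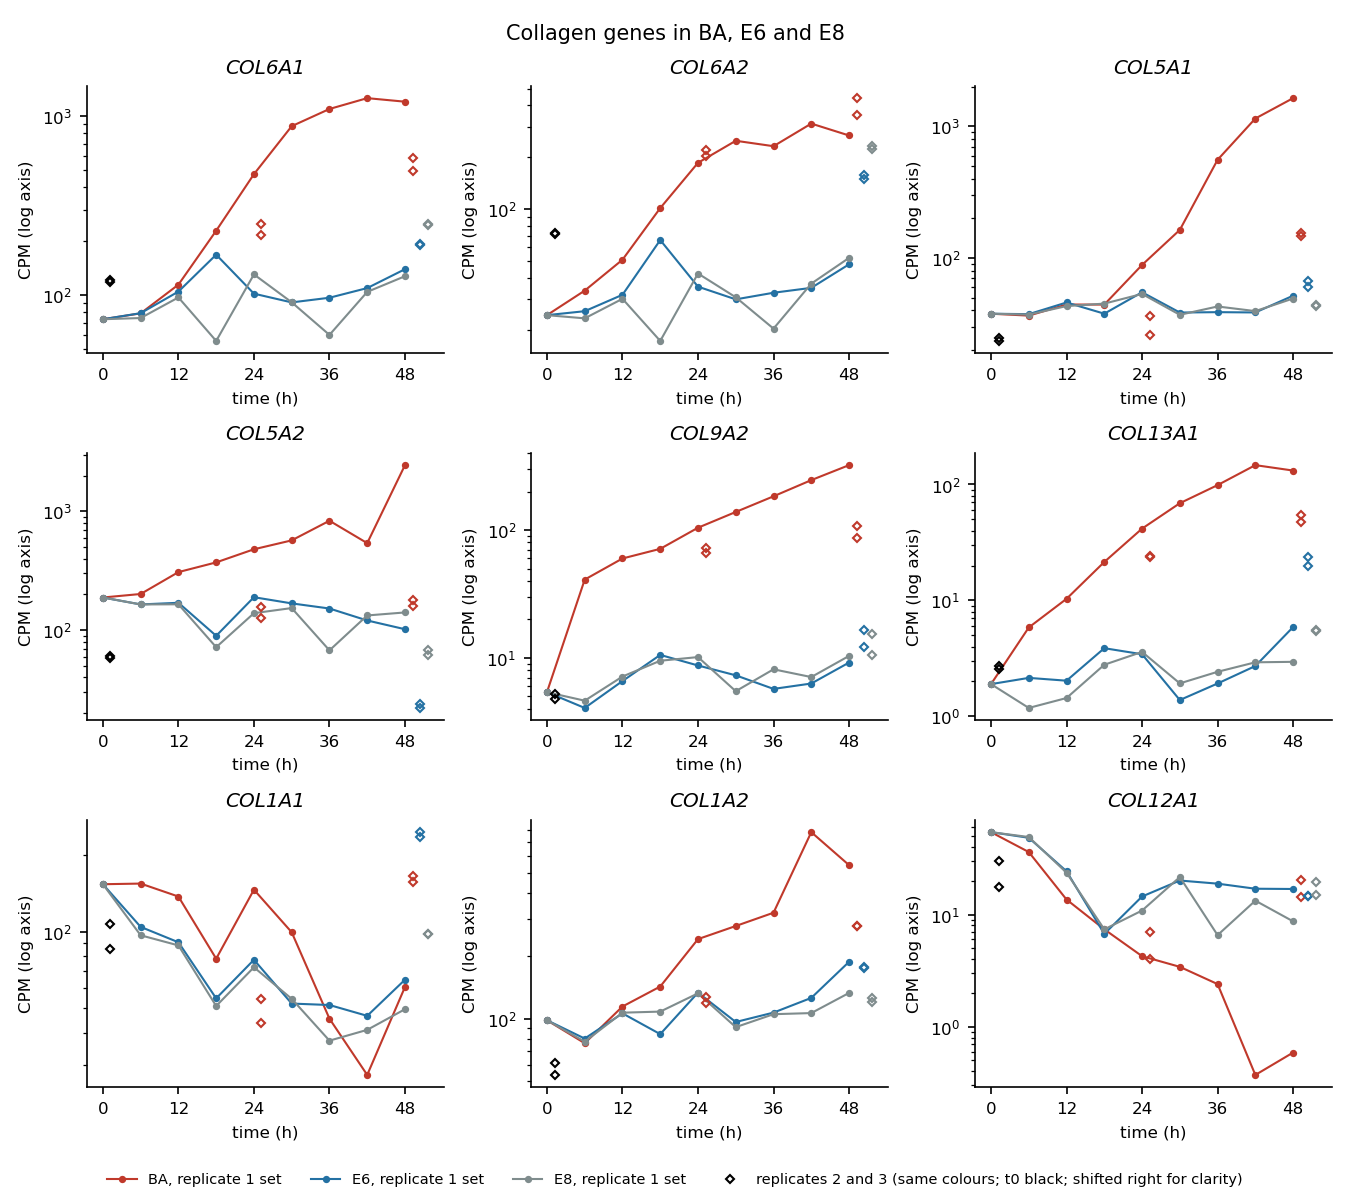
CPM (vertical log axes) of 9 collagen genes against time in hours. Lines join the libraries of the replicate 1 set in BA, E6 and E8 from the shared t0 library and diamonds are replicates 2 and 3; COL5A1 in BA 48 h reaches 1639 CPM in replicate 1, while replicates 2 and 3 hold 156 and 146 CPM, and COL12A1 falls to 0.587 CPM in BA 48 h in replicate 1 only.

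Of the 10 laminin genes tested over the hours, LAMA2, LAMA3, LAMB1 and LAMC3 passed, all higher in BA. Of the chains that form laminin-111 and laminin-511, LAMB1 alone passed. It was at 234 to 367 CPM (median 314) in BA against 129 to 264 CPM (median 221) in E6, 1.45-fold higher (log2 0.53 ± 0.12, edgeR adjusted p = 0.00199), and not past the threshold with replicates 2 and 3 added (0.162). In those replicates LAMB1 was at 128 and 142 CPM in BA 48 h, below 172 and 197 CPM in E6 48 h. LAMC1 was at 429 to 593 CPM (median 519) against 183 to 602 CPM (median 518), a log2 difference of 0.17 ± 0.14 (adjusted p = 0.392), with the low E6 value in the 18 h library that stood apart. LAMA1 was at 144 to 395 CPM (median 180.0) against 104 to 231 CPM (median 196), a log2 difference of 0.05 ± 0.16 (adjusted p = 0.841) and LAMA5 at 142 to 277 CPM (median 188) against 147 to 349 CPM (median 215), a log2 difference of -0.17 ± 0.13 (adjusted p = 0.364). LAMC3, a gamma chain of nerve and vessel laminins, was 1.48-fold higher (0.57 ± 0.13, 0.00231), and LAMA2, the alpha chain of muscle laminin, 1.67-fold (0.74 ± 0.21, 0.0129; 0.0608 with replicates 2 and 3 added). LAMA3 was low, at 0.425 to 8.23 CPM (median 1.93) in BA with its maximum at 36 h, against 0.369 to 1.5 CPM (median 0.655) in E6 (1.51 ± 0.44, 0.0150). LAMB2 and LAMA4 had adjusted p-values of 0.314 and 0.272, and LAMB3 was too low to be tested in this fit.

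Of the chains of the fibronectin and vitronectin receptors, ITGA5, ITGAV, ITGB1 and ITGB5 were higher in BA, while ITGA4, which also binds fibronectin, had a log2 difference of -0.18 ± 0.21 (SE, edgeR adjusted p = 0.568). ITGA5, the alpha chain of the main fibronectin receptor, was at 143, 140.0, 121, 168, 211, 399, 757 and 889 CPM from 6 to 48 h, against 57.6 to 98.7 CPM (median 77.8) in E6. Every BA hour lay above every E6 hour, and the mean difference was 3.69-fold (log2 1.88 ± 0.36, edgeR adjusted p = 5.44e-04). ITGAV, the alpha chain of the vitronectin receptors, had its BA maximum early, at 417 CPM at 12 h, with 202 to 417 CPM (median 350.0) over the hours against 54.6 to 191 CPM (median 159) in E6 (2.41-fold, 1.27 ± 0.18, 4.08e-05). Their beta partners were higher as well. ITGB1 was at 753 to 1064 CPM (median 989.6) against 287 to 722 CPM (median 641), 1.66-fold higher (0.73 ± 0.14, 6.40e-04), and ITGB5 at 562 to 818 CPM (median 659) against 258 to 516 CPM (median 347), 1.91-fold higher (0.93 ± 0.19, 0.00114). Among the rarer beta chains, ITGB3 was at 0.0614 to 1.23 CPM (median 0.582) against 0 to 0.300 CPM (median 0.150), highest at 6 to 18 h in BA (1.95 ± 0.53, 0.00930), ITGB8 was 1.63-fold lower (-0.70 ± 0.17, 0.00461; 0.250 with replicates 2 and 3 added), and ITGB6 reached no more than 0.161 CPM. ITGA9, which binds tenascin and the extra domain of fibronectin, was above E6 at all 8 hours, 34.0 to 185 CPM (median 83.2) against 5.81 to 19.5 CPM (median 13.1), 7.05-fold higher (2.82 ± 0.27, 3.97e-07). Its replicates disagreed at 48 h, with 185, 13.9 and 14.0 CPM in BA 48 h against 14.7, 7.79 and 7.27 CPM in E6 48 h. ITGA8, an alpha chain known from the developing kidney, was at 16.9 and 12.9 CPM in BA 42 h and BA 48 h of the replicate 1 set, and below 1 CPM in every other library.

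Of the laminin receptor chains ITGA3, ITGA6, ITGA7 and ITGB4, ITGA6 and ITGB4 were lower in BA and the others did not pass the test. ITGB1, which binds laminin with ITGA6, was higher, as given above. ITGA6 was at 129, 114, 131, 162, 124, 52.8, 35.1 and 28.5 CPM from 6 to 48 h in BA, against 169.6 to 397 CPM (median 331) in E6 and 301 CPM at t0. It was below t0 already at 6 h, and no BA hour reached the E6 range. The difference was 3.64-fold (log2 -1.86 ± 0.30, edgeR adjusted p = 1.35e-04). ITGB4, its hemidesmosome partner, was at 0.392 to 1.84 CPM (median 0.736) in BA against 1.95 to 3.31 CPM (median 2.19) in E6, 2.67-fold lower (-1.42 ± 0.27, 5.91e-04). ITGA7, the laminin receptor chain of muscle, was at 46.8 to 152 CPM (median 123) in BA against 113 to 153 CPM (median 139.6) in E6 (-0.38 ± 0.16, 0.0797; 0.00647 with replicates 2 and 3 added), and ITGA3 at 8.10 to 41.2 CPM (median 21.2) against 19.1 to 33.6 CPM (median 21.9), a log2 difference of -0.29 ± 0.20 (adjusted p = 0.296). Of the collagen receptors, ITGA1 was 1.78-fold higher at 14.3 to 29.3 CPM (median 19.8) against 5.57 to 14.4 CPM (median 12.7), a log2 difference of 0.83 ± 0.14 (adjusted p = 1.76e-04) and ITGA11 2.65-fold at 1.85 to 4.45 CPM (median 3.48) against 0.907 to 1.71 CPM (median 1.34), a log2 difference of 1.40 ± 0.17 (adjusted p = 4.63e-06). ITGA2 and ITGA10 had adjusted p-values of 0.625 and 0.871. The leukocyte chains ITGB2 and ITGB7 passed as higher in BA (0.0317 and 0.0115) at levels of at most 3.20 and 0.848 CPM. The 7 markers of blood and endothelium summed to 20.2 to 72.9 CPM over the BA hours against 20.6 to 47.0 CPM over the E6 hours, and to 39.7 to 72.9 CPM in BA 48 h against 28.3 to 31.6 CPM in E6 48 h. Of these, PTPRC was at 0 counts in BA 48 h, and RUNX1 was at 19.6, 7.75 and 8.41 CPM in BA 48 h against 1.06, 1.84 and 1.22 CPM in E6 48 h. The part of these markers in the result was not tested.

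**Figure D4:**
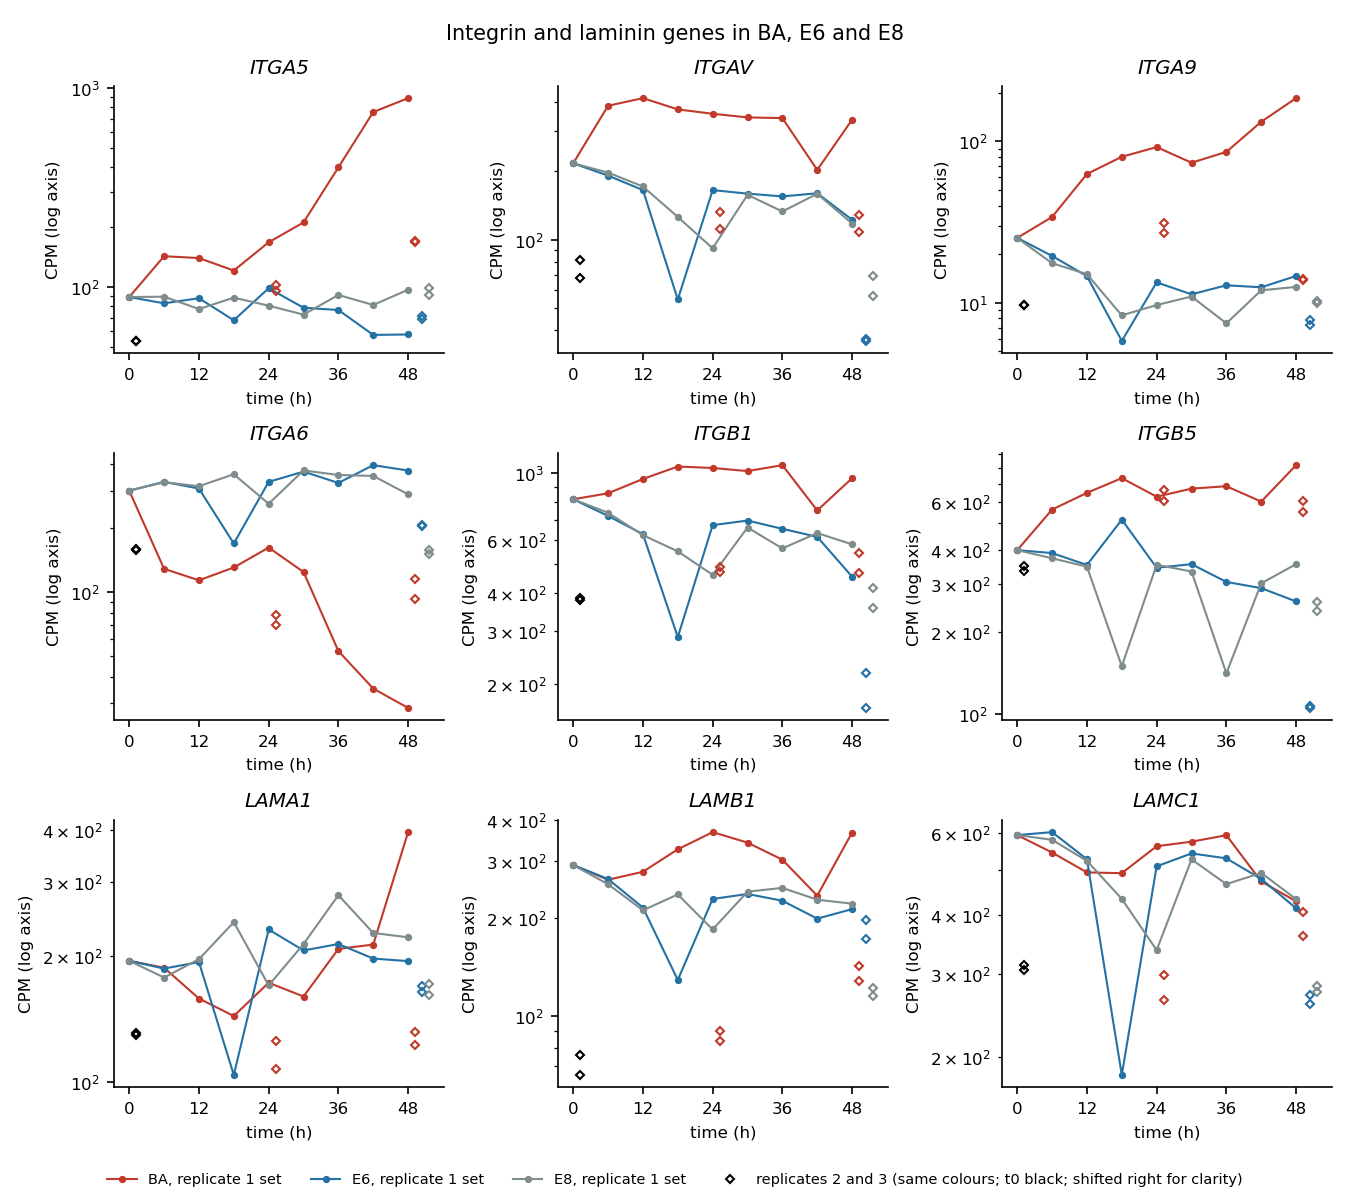
CPM (vertical log axes) of 6 integrin and 3 laminin genes against time in hours, with lines for the replicate 1 set in BA, E6 and E8 and diamonds for replicates 2 and 3. ITGA5 ends at 889 CPM and ITGA6 at 28.5 CPM in BA 48 h of replicate 1. The LAMA1 and LAMC1 lines of the media lie close for most hours, while LAMB1 in BA lies above E6 from 12 h on. The laminin lines dip in the E6 18 h library.

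The replicated groups give the same questions 3 libraries a side, in an edgeR quasi-likelihood model of 15 libraries and 21554 genes. The 74 genes tested in it are again another set, of 43 collagen, 11 laminin and 20 integrin genes. Several of these comparisons share a group, so they are not independent of each other or, through the 24 and 48 h libraries of replicate 1, of the hour-matched values. Same-numbered libraries deviate together, which the gap between the replicate sets alone would give, so it cannot show that the numbers pair samples. The fit with the replicate number as a block is given as well. BA 24 h and t0 differed in 4 of 74 genes, all higher in BA (1.57% of all genes passed), and in 23 with the block, 18 higher and 5 lower (8.95%). These 4 were all collagens: COL4A3 and COL4A4, above, and COL9A2 and COL13A1. COL9A2 was at 104, 71.8 and 66.2 CPM in BA 24 h against 5.38, 5.18 and 4.74 CPM at t0, 16-fold higher (log2 4.0 ± 0.48, edgeR adjusted p = 0.00160), and passed in each fit without 1 of the 6 libraries. COL13A1 was at 41.6, 24.2 and 23.6 CPM against 1.90, 2.54 and 2.74 CPM, 12.6-fold higher (3.65 ± 0.57, 0.00780; up to 0.0512 and lost in 2 of 6 such fits). With the block the added genes included COL6A1 (3.00-fold, adjusted p = 0.0363), COL6A2 (4.28-fold, 0.00352), COL11A2 (6.07-fold, 0.00117), COL1A2 (2.28-fold, 0.00403), ITGB5 (1.81-fold, 0.0193) and ITGAV (1.66-fold, 0.00846) on the higher side. On the lower side they were COL12A1 (7.13-fold, 0.0432), COL8A1 (8.05-fold, 0.0349), ITGA4, a receptor chain for VCAM1 and fibronectin (1.8-fold, 0.0426), COL4A1 (1.57-fold, 0.00539) and COL4A2 (1.32-fold, 0.0295). COL8A1 was at 124, 3 and 15 counts in BA 24 h against 141, 208 and 285 counts at t0, so its fall rested on replicates 2 and 3. COL6A2, COL11A2, COL1A2, COL6A1 and ITGB5 did not overlap between the groups.

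BA 48 h and t0 differed in 15 of 74 genes, all higher in BA (6.37% of all genes passed), and in 39 with the block, 34 higher and 5 lower (28.5%). The 15 were 10 collagen genes (COL1A2, COL4A6, COL5A1, COL6A1, COL6A2, COL6A5, COL6A6, COL9A2, COL11A2 and COL13A1), 3 laminin genes (LAMA2, LAMA3 and LAMB2) and 2 integrin genes (ITGA5 and ITGB2). COL1A2 was at 545, 278 and 278 CPM in BA 48 h against 98.2, 61.5 and 53.7 CPM at t0, 5.29-fold higher (log2 2.4 ± 0.35, edgeR adjusted p = 0.00261). COL6A1 was at 1200.5, 583 and 491 CPM against 73.2, 118 and 122 CPM, 7.54-fold (2.91 ± 0.43, 0.00280). COL9A2 was at 323, 108 and 87.2 CPM against 5.38, 5.18 and 4.74 CPM, 34.9-fold (5.12 ± 0.51, 2.71e-04). In each of these the lowest BA replicate lay above the highest t0 replicate, and with COL6A5, COL6A6 and COL13A1 they passed in every fit without 1 of the 6 libraries. COL13A1 was 33.5-fold higher (5.07 ± 0.61, 8.48e-04). COL6A6 was at 27, 3.14 and 4.04 CPM against 0.158, 0.0978 and 0.142 CPM (log2 6.43 ± 0.99, 0.00347), and COL6A5 at 1.76, 0.802 and 0.801 CPM against 0, 0.0326 and 0.0712 CPM (4.77 ± 0.80, 0.00531). COL6A5 reached the count filter of this fit only through BA, with at most 3 counts in each t0, E6 48 h and E8 48 h library. The other 9 each lost the call in at least 2 of the 6 fits. ITGA5 was 6.41-fold higher (2.68 ± 0.57, 0.0165; up to 0.0995), COL5A1 23.2-fold (4.53 ± 0.88, 0.0111; up to 0.0732), COL6A2 6.57-fold (2.72 ± 0.61, 0.0212; up to 0.0685) and COL11A2 4.92-fold (2.30 ± 0.60, 0.0432; up to 0.131). LAMB2, a beta chain of mature basement membranes, was at 191, 231 and 222 CPM against 156, 140.4 and 139 CPM, 1.52-fold (0.61 ± 0.14, 0.0253; up to 0.225). LAMA2 (2.59-fold, 0.0413), LAMA3 (3.71-fold, 0.0154) and ITGB2 (7.97-fold, 0.0194) were at means of 9.06, 2.41 and 1.56 CPM in BA 48 h. Of the 15, only COL5A1, COL6A1, COL6A5, COL6A6, COL9A2, COL13A1 and ITGA5 were also called against E6 48 h without the block, below. COL11A2 was at 67, 424 and 384 counts in BA 48 h and 51, 409 and 431 counts in E6 48 h. LAMA2 was at 171, 196 and 307 counts in BA 48 h and 130, 265 and 319 counts in E6 48 h. The 5 genes lower with the block were COL8A1, a short-chain collagen (42.7-fold, 0.00157), COL2A1 (3.44-fold, 0.0309), COL14A1 (2.17-fold, 0.0210), ITGA4 (1.75-fold, 0.0237) and ITGAE, a chain that binds E-cadherin (1.55-fold, 0.00344).

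BA 48 h and BA 24 h differed in none of the 74 genes (0.455% of all genes passed) in the edgeR fit. There 24 of the 74 were at an unadjusted p below 0.05, against 2212 of all 21554 genes. DESeq2 called 10 (share of all genes not given). The block gave 17, 15 higher and 2 lower (10%). The 2 lower were COL4A3 and COL4A4. Among the 15 higher, COL1A2 was at 545, 278 and 278 CPM in BA 48 h against 241, 119 and 127 CPM in BA 24 h, 2.30-fold with the block (log2 1.2, edgeR adjusted p = 0.00523, against 0.167 without it). ITGB8, a beta chain that activates TGF-beta, was at 10.3, 8.92 and 10.7 CPM against 2.68, 1.84 and 2.18 CPM (4.68-fold, 0.00694, against 0.141), and LAMA3 at 2.61, 2.24 and 2.37 CPM against 1.26, 0.513 and 0.614 CPM (3.18-fold, 0.0167, against 0.102). In all 3 genes the groups did not overlap.

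BA 48 h and E6 48 h, the comparison of the added factors at the end point, differed in 11 of 74 genes, 9 higher and 2 lower in BA (3.52% of all genes passed), and in 34 with the block, 24 higher and 10 lower (22.1%). ITGB5 was at 818, 604 and 548 CPM in BA 48 h against 258, 107 and 105 CPM in E6 48 h, 4.36-fold higher (log2 2.13 ± 0.32, edgeR adjusted p = 0.00323). COL9A2 was at 323, 108 and 87.2 CPM against 9.17, 12.2 and 16.4 CPM, 14.0-fold higher (3.81 ± 0.47, 0.00133). COL9A1 was at 5.87, 15.2 and 16.1 CPM against 39.9, 45.9 and 50.3 CPM, 3.57-fold lower (-1.83 ± 0.30, 0.00538). These 3 genes, in which no replicate overlapped, kept an adjusted p below 0.05 without any 1 of the 6 libraries. The other 8 lost it in 1 to 4 of the 6 fits: COL6A1 (2.16 ± 0.42, 0.0140; up to 0.0625), COL13A1 (2.27 ± 0.53, 0.0381; up to 0.117), ITGA5 (2.66 ± 0.57, 0.0227; up to 0.112), COL5A1 (3.48 ± 0.84, 0.0415; up to 0.169), COL6A5 (4.24 ± 0.75, 0.00946; up to 0.0594), COL6A6 (4.54 ± 0.88, 0.0141; up to 0.0707), LAMC3 (1.40 ± 0.30, 0.0229; up to 0.182) and, lower in BA, COL20A1 (-2.10 ± 0.41, 0.0145; up to 0.0615). The count was 6 without E6 48 h replicate 1 and 4 without replicate 2 or without replicate 3 of E6 48 h. Among the genes added by the block were COL5A2 (13.2-fold higher, adjusted p = 4.05e-04, against 0.0650 without it), ITGAV (3.14-fold, 3.33e-05, against 0.260), ITGB1 (2.51-fold, 1.28e-04, against 0.183), COL6A2 (3.44-fold, 0.00393, against 0.184), COL6A3 (2.95-fold, 0.00269, against 0.0696) and COL1A2 (1.98-fold, 0.00535, against 0.112). ITGA6 (2.85-fold, 0.0381, against 0.110), ITGA7 (1.74-fold, 0.0459, against 0.200) and COL14A1 (3.81-fold, 0.00172, against 0.0716) were lower with it.

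The replicate sets gave these differences in different sizes. COL5A1 was at 1639, 156 and 146 CPM in BA 48 h against 51.8, 60.1 and 66.8 CPM in E6 48 h, which are log2 ratios (CPM + 1) of 4.96 in replicate 1, 1.36 in replicate 2 and 1.12 in replicate 3. ITGA5 was at 889, 170.2 and 169 CPM against 57.9, 71.6 and 69.5 CPM, with ratios of 3.92, 1.24 and 1.27. COL5A2 was at 2446, 160.1 and 178 CPM against 102, 24.0 and 22.1 CPM, with ratios of 4.57, 2.69 and 2.95. The direction was shared and the size was larger in replicate 1. ITGA6 was at 28.5, 93.3 and 115 CPM against 375, 207 and 206 CPM, lower in each replicate with ratios of -3.67, -1.14 and -0.83. ITGB5, ITGAV and ITGB1 had ratios of 1.66, 1.45 and 1.08 in replicate 1, below those of 2.49, 1.53 and 1.10 in replicate 2. Within replicates 2 and 3 alone the edgeR fit gave log2 differences of 1.25 for COL5A1 (adjusted p = 3.07e-05), 1.26 for ITGA5 (3.73e-07), 2.44 for ITGB5 (2.70e-08), 2.77 for COL9A2 (1.77e-06), -1.62 for COL9A1 (4.73e-07) and -0.99 for ITGA6 (1.88e-05). These p-values measure only the spread between replicates 2 and 3, which lay close together. Their counts differed by a chi-square per degree of freedom of 19.7 in BA 48 h and 13.3 in E6 48 h. Pairs with replicate 1 gave 356 and 333 in BA 48 h and 252 and 246 in E6 48 h. More of the whole table also passed without replicate 1, as given below. Replicate 1 by itself holds 1 library a group and has no test. The mesendoderm and endoderm markers were also far higher in BA 48 h of replicate 1 than of replicates 2 and 3 (EOMES 1014, 43.5 and 45.2 CPM), and the part of that in the gap between the sets was not tested.

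**Figure D5:**
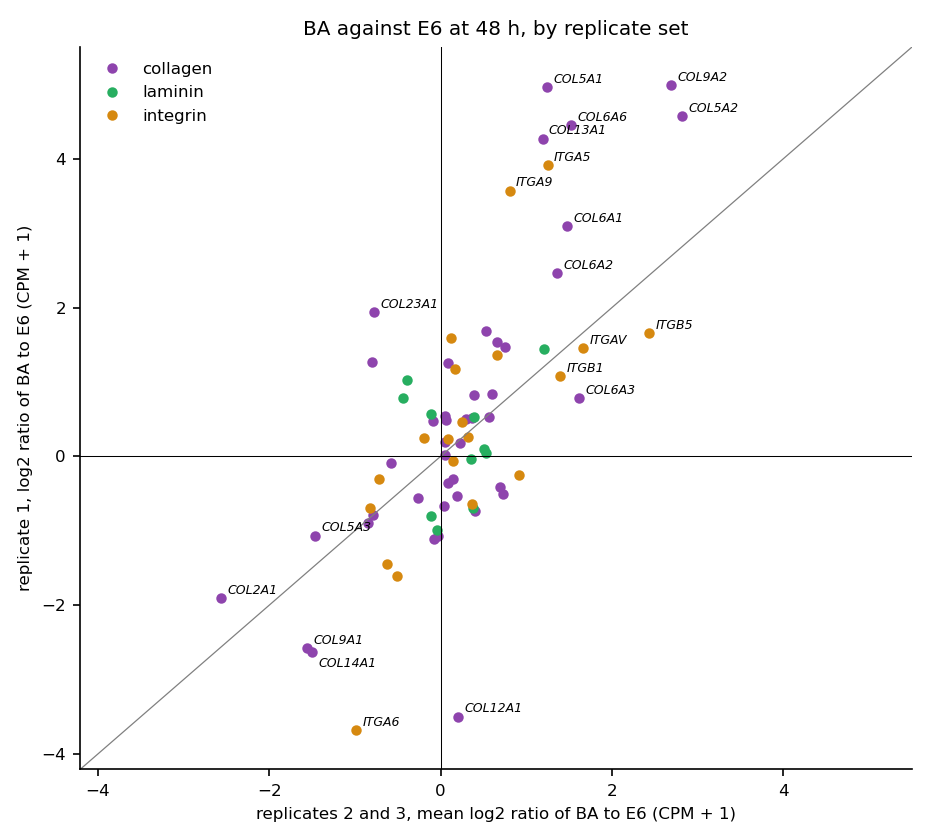
Log2 ratio of BA to E6 at 48 h (CPM + 1) in replicate 1 (vertical axis) against the mean ratio in replicates 2 and 3 (horizontal axis), with 1 point a gene coloured by family and the line of equal ratios. COL5A1, ITGA5 and COL9A2 lie above the line, ITGB5 lies below it, and ITGA6 and COL12A1 are lowest on the vertical axis.

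The E6 and E8 media differ in this design by the maintenance factors of E8, without BMP4 and Activin A. Between E6 and E8 over the 8 hours, none of the 74 genes passed the edgeR test (0.0% of all genes passed), with 0 at an unadjusted p below 0.05 and 0 called by DESeq2, and the log2 differences ran from -0.65 to 0.48. At 48 h E6 and E8 differed in none in the edgeR fit (0.144%). There 6 of the 74 were at an unadjusted p below 0.05, against 1017 of all 21554 genes, and DESeq2 called 0. With the block 4 differed, all lower in E6 (2.84%). ITGB5 was at 258, 107 and 105 CPM in E6 48 h against 354, 257 and 238 CPM in E8 48 h (1.90-fold lower with the block, edgeR adjusted p = 0.0299, against 0.697 without it). LAMC3 was at 42.5, 24.9 and 26.7 CPM against 61.1, 46.6 and 43.9 CPM (1.64-fold, 0.0135, against 0.941). ITGB1 was at 454, 217 and 167 CPM against 581, 358 and 416 CPM (1.74-fold, 0.0125, against 1), and COL6A3 2.49-fold lower (0.0289, against 0.488). Each was lower in E6 in all 3 replicates. E8 48 h and t0 differed in none in the edgeR fit (0.139%). There 13 of the 74 were at an unadjusted p below 0.05, against 3226 of all 21554 genes. DESeq2 called 4 (share of all genes not given). With the block 18 differed, 14 higher and 4 lower in E8 48 h (25.6%). The highest of the 14 was ITGA2B, the alpha chain of the platelet fibrinogen receptor, at 8.75, 22.9 and 25.7 CPM in E8 48 h against 1.84, 4.37 and 3.95 CPM at t0 (5.51-fold, 1.25e-04, against 0.104). The 4 markers of the platelet lineage, ITGA2B among them, summed to 9.60 to 30.6 CPM in E8 48 h against 2.64 to 7.58 CPM at t0. GP9 was at 0 counts in both groups, PF4 at 0.170, 3.14 and 2.63 CPM in E8 48 h against 0.158, 1.43 and 2.03 CPM at t0, and the part of these markers in the result was not tested. COL9A1 was 1.90-fold higher (0.0175) and COL14A1 2.10-fold (0.0262), and COL8A1 9.15-fold lower (0.0120).

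The gap between BA and E6 also changed with time. Fitted as a straight line over the 8 hours of the replicate 1 set, the log2 difference changed in 17 of 74 genes (9.91% of all genes passed), 12 of them toward higher in BA and 5 toward lower. COL6A6 gained 4.45 ± 0.57 (SE) per 24 h (edgeR adjusted p = 1.30e-04), COL5A1 3.42 ± 0.32 (1.12e-05), COL6A1 2.41 ± 0.40 (0.00109) and ITGA5 2.03 ± 0.27 (1.52e-04). COL12A1 changed by -2.77 ± 0.43 per 24 h (6.03e-04), COL14A1 by -1.85 ± 0.27 (3.68e-04) and ITGA6 by -1.60 ± 0.34 (0.00631). Without the 48 h libraries 10 of the 17 passed, and 9 passed whichever hour was left out, among them COL6A6, COL5A1, COL6A1, ITGA5, COL12A1 and COL14A1. With replicates 2 and 3 added and the block, 4 genes passed (2.36%): COL6A6, COL5A1 and COL5A2 upward and COL2A1 downward. The E6 and E8 difference changed with time in none of the 74 genes (0.0%), with 0 at an unadjusted p below 0.05 and 0 called by DESeq2.

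Genes that work with these families were counted in 5 lists, where 30.9% of all genes tested over the hours passed. Of 13 tested integrin ligands outside the families, 5 were higher and 1 lower in BA over the hours, with a median log2 difference of 0.15 against -0.01 for all genes. FN1, fibronectin, the ligand of ITGA5, was at 282 to 3648 CPM (median 1409.8) in BA against 129 to 322 CPM (median 296) in E6 (log2 2.39 ± 0.38, edgeR adjusted p = 1.04e-04) and averaged 2452 ± 1039 CPM in BA 48 h and 136 ± 88.0 CPM in E6 48 h (SD, n = 3 each). FBN2, fibrillin of early microfibrils, was 6.13-fold higher (8.40e-07), POSTN 5.18-fold (1.92e-04), THBS1 1.78-fold (0.00310) and VWF 2.59-fold (0.0439), and MFGE8 2.22-fold lower (2.95e-04). Of 14 tested basement membrane partners, 5 were higher and 2 lower (median 0.05). SPARC, which binds collagen, was 1.98-fold higher (8.16e-04), and NID2, a nidogen that links laminin to type IV collagen, 3.04-fold lower (2.01e-04), whereas its relative NID1 and perlecan, HSPG2, had adjusted p-values of 0.681 and 0.892. EGFLAM, SMOC2, FREM1 and NTN4 were the other higher partners and SMOC1 the other lower one.

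Of 26 tested genes of collagen processing, 8 were higher and 5 lower (median 0.13). PLOD2, a lysyl hydroxylase of fibril crosslinks, was at 37.4 to 389.5 CPM (median 128) in BA against 22.7 to 63.6 CPM (median 35.8) in E6, 3.40-fold higher (edgeR adjusted p = 1.90e-05). LOX, which crosslinks fibrils, was 3.53-fold higher (5.21e-07), and the procollagen proteases ADAMTS3 and ADAMTS2 4.43-fold and 2.64-fold (2.43e-05 and 6.17e-05). P3H2, P4HA2, BMP1 and COLGALT1 were also higher, and LOXL1, LOXL2, LOXL3, COLGALT2 and PCOLCE lower. Of 22 tested adhesion proteins on the inner face of integrins, 9 were higher and 2 lower (median 0.25). FERMT2, a kindlin that activates integrins, was 2.72-fold higher (5.19e-05), and its epithelial relative FERMT1 4.11-fold lower (1.95e-04). Paxillin (PXN), the talins TLN1 and TLN2, LIMS1, LIMS2, ILK, PARVA and SRC were higher, and the tensin TNS3 lower. Of 11 other matrix receptors, CD44, the hyaluronan receptor, was higher (2.51-fold, 0.00718), and SDC1, SDC2 and BCAM were lower (median -0.14). The shares called in the lists were not tested against the 30.9% of all genes that passed over the hours. At 48 h in 3 replicates a side the lists held 1 higher and 2 lower partners, 2 higher and 1 lower ligands, 1 higher processing gene, 0 adhesion proteins and 1 higher receptor (edgeR; 3.52% of all genes). With the replicate block they held 5 higher and 2 lower partners, 5 higher and 1 lower ligands, 6 higher and 2 lower processing genes, 8 higher and 1 lower adhesion proteins and 3 higher and 1 lower receptors (22.1%). Those called without the block were SPARC, NID2 and SMOC1, FN1, SPP1 and MFGE8, PLOD2, and DDR2, a collagen receptor kinase.

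The authors' deposited table of DESeq2 results, whose header does not name the control group, holds 13 of the 82 genes below an adjusted p of 0.05 for BA at 24 h (11 higher and 2 lower), where 1.62% of all its genes are. For BA at 48 h the authors' deposited table holds 19 (18 higher and 1 lower, 3.49% of all genes), for E6 at 48 h 14 (12 higher and 2 lower, 3.85%) and for E8 at 48 h 5 (4 higher and 1 lower, 1.39%). In the authors' deposited table COL9A2 has log2 fold changes of 3.79 and 4.65 for BA at 24 and 48 h, COL5A1 of 0.63 and 3.46, and COL4A3 of 1.8 and 0.41. Its 19 genes for BA at 48 h include 14 of the 15 called here against t0.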

How the data were processed

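Poly(A) RNA of 35 H9 libraries was prepared with the TruSeq mRNA kit, per the labels' protocols. The deposited table holds raw counts per gene for 58581 genes, made by the authors with featureCounts on hg38, per the submitters' processing notes, which give no versions. The deposited DESeq2 table holds log2 fold changes and adjusted p-values, per the file headers. The reference group of that table and the strand setting of the counting are not given in the sources used here. Gene symbols are those of GENCODE v23, and exon lengths and opposite-strand overlaps come from GENCODE v29.

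CPM used TMM factors over all libraries. Genes were tested with edgeR 4.0.16 (filterByExpr, glmQLFit, glmQLFTest, R 4.3.3) with Benjamini-Hochberg adjustment over all genes tested at a threshold of 0.05. The replicated fit held 15 libraries and 21554 genes, and the hour-matched fit 24 libraries and 18244 genes, with the hour as a factor. A gene needed a count of about 10 in at least 3 libraries. SE is the log2 difference divided by the square root of F. DESeq2 1.42.0 and its size factors, no filter on low counts, 2 groups or 2 media alone, and each left-out library or hour were alternatives. Leaving out the 5 libraries that stood apart and fitting 2 media alone were added after seeing the data.

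Deviations from group means correlated at 0.624 to 0.918 in every pair of same-numbered libraries. The gap between the replicate sets alone would give this, so it cannot show that the numbers, which come from the labels, pair samples. The fit with the replicate block is given beside results it changes. No 2 libraries of a replicated group agreed within sampling noise (chi-square per degree of freedom 13.3 or more). Pairs of replicates 2 and 3 were at 13.3 to 23.4, and pairs with replicate 1 at 227 to 356. The scripts were tested on simulated data. Members and lists were chosen with earlier results of these data known. Named genes are those called in a comparison (the 12 largest, with a mean of at least 5 CPM in a group, beyond 12 in 1 direction), the most abundant of each family, and fixed laminins, integrins, collagens and matrix partners. ITGA2B, COL8A1, COL14A1 and the other genes named only from the block fits were chosen after their values were seen. The values of 1 gene are not reported here.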

Additional observations from a re-analysis of the deposited data

Results flagged for a closer look

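For 17 genes the difference between BA and E6 changed with time over the 8 hours of the replicate 1 set, tested as the slope of the log2 difference against time in edgeR with Benjamini-Hochberg adjustment over 18244 genes. Slopes are in log2 units per 24 h. The difference moved upward for COL6A6 by 4.45, COL5A1 by 3.42, COL6A5 by 2.91, COL6A1 by 2.41, ITGB2 by 2.35, COL13A1 by 2.29, ITGA5 by 2.03, COL5A2 by 1.84, COL6A2 by 1.70, COL9A2 by 1.46, COL1A2 by 1.32 and ITGA9 by 1.10. It moved downward for ITGA7 (-0.75), COL2A1 (-1.19), ITGA6 (-1.60), COL14A1 (-1.85) and COL12A1 (-2.77). COL6A5 and COL2A1 each lost the call in 6 of the 8 fits that leave out 1 hour, ITGA9 in 5, COL6A2 in 3, ITGB2 in 2, and COL5A2, ITGA6 and ITGA7 in 1. Each hour is 1 library per medium, and mesendoderm and endoderm markers changed over the same hours in BA. Their part in the slopes was not tested.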

How the results depend on the processing

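Counts of called genes depended most on the replicate sets. The fits tested 66 to 82 of the 82 genes, so their counts have different denominators. The replicate block gave 23 for BA 24 h against t0, 17 for BA 48 h against BA 24 h, 39 for BA 48 h against t0, 34 for BA 48 h against E6 48 h, 4 for E6 48 h against E8 48 h and 18 for E8 48 h against t0, where the unblocked fits gave 4, 0, 15, 11, 0 and 0. DESeq2 gave 10, 10 and 4 for BA 24 h against t0, BA 48 h against BA 24 h and E8 48 h against t0, and leaving low counts unfiltered gave 2 for BA 24 h against t0. The shares of all genes called by DESeq2 are not given here. With libraries of the 2 groups alone, 6 genes passed for BA 48 h against t0 and 0 for BA 48 h against E6 48 h. Leaving out libraries gave 0 to 40 for BA 24 h against t0, 0 to 45 for BA 48 h against BA 24 h, 0 to 52 for BA 48 h against t0, 0 to 48 for BA 48 h against E6 48 h, 0 to 28 for E6 48 h against E8 48 h and 0 to 47 for E8 48 h against t0. In each, the highest count came without replicate 1 in any group, and 0 came without replicate 2 or replicate 3; the cause was not tested. Without replicate 1 the whole table also gave more calls, 4025 of 21822 genes for E6 48 h against E8 48 h to 11190 for E8 48 h against t0. Leaving out 1 hour, 39 to 47 passed for BA against E6 over the hours and 13 to 21 for its change with time, for which DESeq2 gave 22. The change with time gave 4 genes with replicates 2 and 3 added with the block, and 29 without the 5 libraries that stood apart. The log2 difference changed sign in some fits without 1 library. It ran from -0.020 (without BA 48 h replicate 1) to 1.40 for ITGAV and from -0.066 (without the same library) to 2.92 for ITGA9 in BA 48 h against t0. It ran from -0.16 (again without that library) to 2.34 for ITGA11 in BA 48 h against E6 48 h. In E8 48 h against t0 it ran from -1.0 to 0.17 (without t0 replicate 1) for ITGAV and from -1.12 to 0.0068 (without t0 replicate 3) for COL7A1. Levels near or below 1 CPM rest on few counts, which limits the precision of ratios for genes such as COL4A3, COL6A5 and ITGB3.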

Other observations

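COL8A1, a short-chain collagen of vessel walls and the eye, was higher in the starting cells than in any replicated group at 48 h. It was at 0.392, 0.100 and 0.247 CPM in BA 48 h, 2.0, 0.233 and 0.238 CPM in E6 48 h and 1.99, 0.670 and 0.889 CPM in E8 48 h, against 7.43, 6.78 and 10.1 CPM at t0. With the replicate block it was lower in BA 48 h (log2 difference -5.42 ± 0.92 SE, edgeR adjusted p = 0.00157) and in E8 48 h (-3.19 ± 0.76, 0.0120), and without the block the adjusted p-values were 0.0515 and 0.304. These comparisons share the t0 libraries.

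COL9A3 and LAMA5 separated the replicate sets within BA 48 h: COL9A3 was at 31.7, 235 and 187 CPM and LAMA5 at 175, 602 and 521 CPM in replicates 1, 2 and 3. ITGA2B was higher in E6 48 h (7.39, 24.2 and 25.4 CPM) and in E8 48 h (8.75, 22.9 and 25.7 CPM) than at t0 (1.84, 4.37 and 3.95 CPM).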
